A study of Homo sapiens with 23 samples.

Results

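MYC and the proteins that pair with it, or compete with it for its partner, were followed as a set of 10 genes out of the 58592 genes of the annotation. The set was named as a network and not ranked by a measured value. Earlier results of these data were known when it was chosen. It holds the oncogene MYC, its obligate partner MAX, and the MAX-binding repressors MXD1, MXD3, MXD4, MXI1 and MNT. The large MAX partner MGA, and the MAX-like protein MLX with its partner MLXIP, complete it. All 10 genes passed the filter on low counts and were among the 17743 genes tested. The set covers the summed level of each gene and the levels of its transcripts in 9 groups that differ in compound, dose and time.

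The cells were SUDHL5, an established human line of diffuse large B-cell lymphoma of the germinal centre type, and poly(A) RNA was sequenced in 23 libraries. CDK-TCIP1 is a bivalent compound: one end binds BCL6, a repressor on which germinal centre B cells depend, and the other end is a kinase inhibitor that holds CDK9, which releases paused RNA polymerase II. Cells had CDK-TCIP1 at 10 nM in 2 libraries, at 30 nM in 4 and at 100 nM in 3, all harvested after 2 h, and at 30 nM in 3 further libraries harvested after 4 h. The compounds Neg1 and Neg2, whose structural difference from CDK-TCIP1 is not given in the labels, were given at 30 nM for 2 h and for 4 h (2 libraries in each of these 4 groups), and DMSO, the solvent that all wells held at the same final share, was sampled alone at 4 h (3 libraries). The labels name 1 cell line and no genetic change, and nothing in them ties a replicate to its own culture. What the p-values measure is therefore the spread among these libraries, which may be technical.

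MYC binds DNA only as a dimer with MAX, and the MYC-MAX dimer sits on E-boxes and raises the transcription of growth, nucleotide and ribosome genes. The MXD proteins, MXI1 and MNT also pair with MAX, and these dimers bind the same sites and bring in the SIN3 deacetylase complex. MGA with MAX anchors the Polycomb complex PRC1.6, which silences germ cell genes. MLX does not bind MYC: it pairs with MXD1, MXD4 or MNT, and with MLXIP (MondoA), which responds to glucose. In germinal centre lymphoma MYC is a common driver, and its mRNA is short-lived.

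The libraries held 17396484 to 26373153 estimated counts. In every library the 7 B cell markers were at 83.6 or higher in CPM, the count of a gene scaled to library size. Of the markers of T and NK, myeloid, erythroid, epithelial and fibroblast cells, DCN was at 32.8 to 60.5 CPM and each of the others was at 2.75 CPM or lower, with HBB and S100A8 at 0 in all libraries. The summed B cell markers were at 2440 to 2560 CPM in DMSO and at 2020 to 2180 CPM after 4 h of CDK-TCIP1, where 5 of the 7 fell. In the same comparison the 1 erythroid marker tested, ALAS2, rose (log2 fold change 3.62, with the list's sum at 0 to 0.32 CPM in DMSO and 0.424 to 1.88 CPM after treatment), and 1 of 3 tested epithelial and fibroblast markers fell (list sum 46.2 to 49.2 and 34.5 to 39.4 CPM). The part of these markers in the results below was not tested. On principal components, CDK-TCIP1 100 nM replicate 1 and Neg2 2 h replicate 1 stood apart from their groups, and beside the member results below stand the values without them where a call changed.

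After 4 h of CDK-TCIP1 at 30 nM, 6 of the 10 genes were lower than in DMSO (MYC, MAX, MXD4, MNT, MGA and MLXIP), 1 was higher (MXD3), and MXD1, MXI1 and MLX did not pass the test. Of all 17743 genes tested, 36.8% passed in this comparison, 17.5% as higher and 19.3% as lower (edgeR quasi-likelihood test, Benjamini-Hochberg adjusted p under 0.05, the rule for "rose" and "fell" throughout). The median log2 fold change of the 10 genes was -0.31, against 0.03 over all tested genes. Scaling sets each fold change against the bulk of genes, and a common change of every mRNA is not visible in it. In bulk RNA fewer cells of a type and less RNA per cell cannot be told apart.

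**Figure D1:**
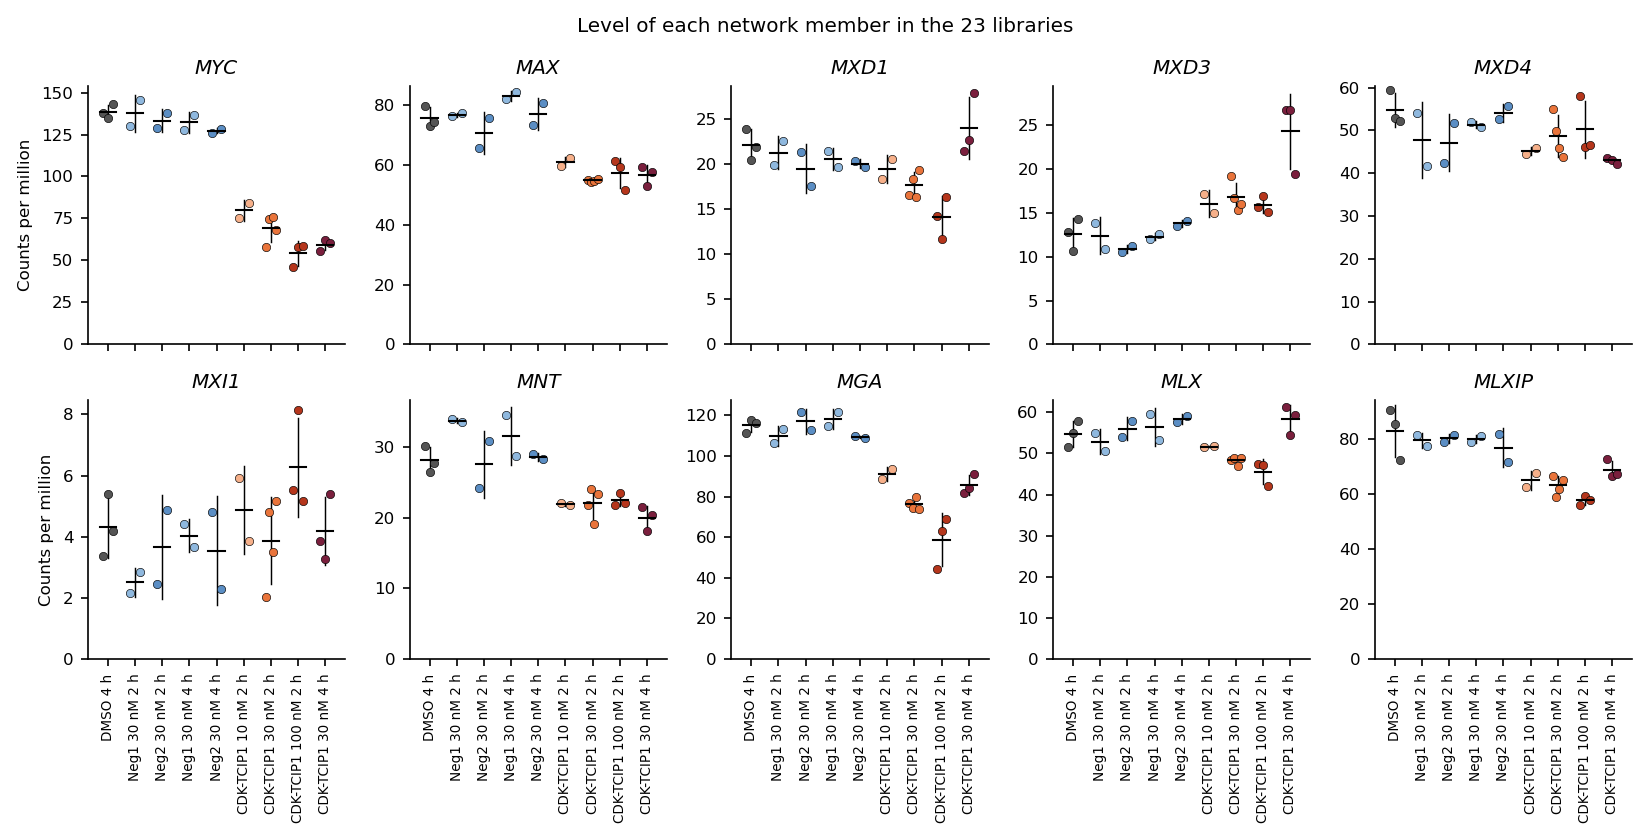
Level of each of the 10 genes in every library, in CPM after TMM scaling (vertical axes start at 0 and differ between panels), for the 9 groups; points are libraries and bars are group means. MYC lies at 126 to 146 CPM in the DMSO, Neg1 and Neg2 libraries and at 45.9 to 84.3 CPM in the 12 CDK-TCIP1 libraries, and MXD3 is highest in the 3 libraries at 30 nM and 4 h.

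MYC (ENSG00000136997; GRCh38 chromosome 8, 127735434 to 127741434, plus strand) was at 138, 135 and 143 CPM in the DMSO libraries and at 55.8, 62.4 and 60.2 CPM after 4 h of CDK-TCIP1 at 30 nM. All 3 treated libraries were below all 3 DMSO libraries, as were the libraries of 24.1% of all genes. The log2 fold change was -1.22 ± 0.09 (± SE; adjusted p = 5.75e-11, edgeR), which leaves 42.9% of the DMSO level. At 2 h, MYC was at 75.3 and 84.3 CPM at 10 nM, at 58.3, 74.7, 76.0 and 68.0 CPM at 30 nM, and at 45.9, 58.2 and 58.7 CPM at 100 nM. The 4 Neg1 and Neg2 libraries of that time lay far above these, at 130, 146, 129 and 138 CPM.

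Ordered by mean level, MYC ran from DMSO (139 ± 4.15 CPM, SD, n = 3) through Neg1 2 h, Neg2 2 h, Neg1 4 h and Neg2 4 h (127 ± 1.57, n = 2) to CDK-TCIP1 at 10 nM (79.8 ± 6.33, n = 2), 30 nM 2 h (69.2 ± 8.11, n = 4), 30 nM 4 h (59.5 ± 3.37, n = 3) and 100 nM 2 h (54.2 ± 7.24, n = 3). Of the 8 steps between neighbours in this order, the step from Neg2 4 h to CDK-TCIP1 10 nM passed the test (0.67 ± 0.11 on the log2 scale, adjusted p = 0.000134, edgeR). The other 7 did not, with adjusted p of 0.0667 or higher (edgeR). The order was set by the same values that were then tested. The groups of the step that passed differ in compound, dose and time.

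Within the CDK-TCIP1 groups of 2 h, no member passed the test between 10 and 30 nM (edgeR; 3 of the 10 at an unadjusted p under 0.05, and 0 by DESeq2), where 2.62% of all genes did. Without the 2 libraries that stand apart, MGA passed (-0.26, adjusted p = 0.0111). MYC had a difference of -0.21 ± 0.09 there, with a 95% interval of -0.40 to -0.02. Between 30 and 100 nM, MYC (-0.35 ± 0.09, adjusted p = 0.00708) and MGA (-0.38 ± 0.09, adjusted p = 0.00577) fell, against 12.9% of all genes called. The MYC libraries of these doses overlap. Without 100 nM replicate 1, which stands apart, the values were -0.24 for MYC (adjusted p = 0.11) and -0.21 for MGA (adjusted p = 0.0525). Without the 2 libraries that stand apart, MYC was at -0.25 and did not pass (adjusted p = 0.0912, edgeR). From 10 to 100 nM, MYC fell by 0.56 ± 0.10, MGA by 0.64 ± 0.10 and MXD1 by 0.46 ± 0.14, where 25.1% of all genes passed (edgeR).

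MAX is the partner without which MYC does not bind DNA (ENSG00000125952, chromosome 14, 65006174 to 65102695, minus strand). Its level was 79.9, 73.1 and 74.6 CPM in DMSO and 59.4, 53.0 and 57.8 CPM after 4 h at 30 nM. The groups did not overlap, and the log2 fold change was -0.42 ± 0.07 (adjusted p = 2.37e-05, edgeR). MAX was at 59.8 and 62.4 CPM at 10 nM, at 55.2, 54.5, 54.7 and 55.4 CPM at 30 nM and at 61.4, 59.3 and 51.6 CPM at 100 nM after 2 h. No further drop with dose was seen: the difference of 100 from 30 nM was 0.07 ± 0.07, with a 95% interval of -0.07 to 0.20, while MYC and MGA fell over that step. MAX overlaps FNTB on the opposite strand, and the strand setting of the counting is not given in the sources used here.

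MXD3, a repressor of the MXD family linked to cycling cells (ENSG00000213347; chromosome 5, 177301461 to 177312757, minus strand), was the member that rose. It was at 12.8, 10.6 and 14.3 CPM in DMSO and at 26.7, 26.8 and 19.4 CPM after 4 h at 30 nM. It rose by 0.95 ± 0.13 on the log2 scale (adjusted p = 1.91e-06, edgeR). The groups did not overlap, which held with treated libraries higher for 24.5% of all genes. After 2 h at 30 nM it was at 19.1, 16.7, 15.3 and 16.0 CPM, above the Neg1 (13.9 and 10.9) and Neg2 (10.6 and 11.2) libraries. From 2 h to 4 h at 30 nM MXD3 rose by a further 0.53 ± 0.12 (adjusted p = 0.00168, edgeR), where 21.9% of all genes passed. The dose made no visible order at 2 h: 100 nM differed from 10 nM by -0.01 ± 0.15, with a 95% interval of -0.31 to 0.30. Against Neg1 alone at 2 h the rise (0.44 ± 0.14, adjusted p = 0.0228) was lost without Neg1 replicate 2 (0.28, adjusted p = 0.336) and without CDK-TCIP1 replicate 1 (0.37, adjusted p = 0.069). MXD3 overlaps RAB24 on its own strand and PRELID1 on the other, so part of its reads may be shared.

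MXD1 (MAD1, induced when blood cells differentiate; ENSG00000059728, chromosome 2, 69897688 to 69942945, plus strand) was lowest at the highest dose of 2 h. It was then at 18.4 and 20.6 CPM at 10 nM, at 16.6, 18.4, 16.3 and 19.4 CPM at 30 nM and at 14.3, 11.8 and 16.4 CPM at 100 nM. At 4 h it was at 21.5, 22.7 and 27.9 CPM, beside 24.0, 20.5 and 22.0 CPM in DMSO. At 100 nM MXD1 fell against the mean of Neg1 and Neg2 (-0.53 ± 0.12, adjusted p = 0.000532, edgeR). From 2 h to 4 h at 30 nM it rose by 0.44 ± 0.11 (adjusted p = 0.0044, edgeR). This no longer passed when replicate 3 of 4 h was left out (0.32, adjusted p = 0.0574) or with counts scaled by transcript length (0.41, adjusted p = 0.0947). MXD1 overlaps SNRNP27 on its own strand, so part of its reads may be shared.

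MXD4, a repressor that is high in resting cells (ENSG00000123933; chromosome 4, 2247432 to 2262294, minus strand), fell after 4 h. It was at 59.4, 53.0 and 52.2 CPM in DMSO and at 43.6, 43.2 and 42.2 CPM with CDK-TCIP1. The fold change was -0.35 ± 0.10 (adjusted p = 0.00706, edgeR), and the groups did not overlap. At 2 h its difference from the mean of Neg1 and Neg2 was -0.07 ± 0.11 at 10 nM, 0.04 ± 0.09 at 30 nM and 0.08 ± 0.10 at 100 nM, and none passed. MXI1 (MXD2), the lowest member at 2.02 to 8.14 CPM (ENSG00000119950; chromosome 10, 110207605 to 110287365, plus strand), rose at 100 nM. There it was at 5.51, 8.14 and 5.17 CPM, beside 2.17, 2.83, 2.47 and 4.86 CPM with Neg1 and Neg2 at 2 h (1.05 ± 0.31, adjusted p = 0.00665). Without the 100 nM replicate 2 this call was lost (0.82, adjusted p = 0.0605), as it was with length scaling (0.86, adjusted p = 0.0751).

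MNT, the widely expressed repressor that holds MAX in resting and growing cells alike (ENSG00000070444; chromosome 17, 2384060 to 2401118, minus strand), was at 30.2, 26.5 and 27.7 CPM in DMSO and at 21.6, 18.2 and 20.3 CPM after 4 h. It fell by 0.49 ± 0.10 (adjusted p = 0.000382, edgeR), and the libraries did not overlap. Its 2 h means were 21.9 ± 0.223, 22.1 ± 2.22 and 22.5 ± 0.871 CPM at 10, 30 and 100 nM, so that no order with dose was visible. In counts scaled by transcript length, which removes changes in the mix of long and short transcripts, MNT missed the threshold at 4 h (-0.51, adjusted p = 0.0773), and at 2 h against the mean of Neg1 and Neg2 its values were -0.26 at 30 nM (adjusted p = 0.316) and -0.09 at 100 nM (adjusted p = 0.787).

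MGA (ENSG00000174197, chromosome 15, 41621224 to 41773081, plus strand) had a lower mean at each higher dose of 2 h. It was at 111, 118 and 116 CPM in DMSO, at 88.7 and 93.4 CPM at 10 nM, at 77.1, 74.2, 79.7 and 74.0 CPM at 30 nM and at 44.1, 63.0 and 69.1 CPM at 100 nM after 2 h. The 3 doses did not overlap one another, and the lowest value, 44.1, belongs to the 100 nM library that stands apart. The share of all genes with such an order was not counted. The step from 10 to 30 nM did not pass (-0.26, adjusted p = 0.172, edgeR), but did with no filter on low counts (0.0261) and with the groups compared alone (0.0404). That from 30 to 100 nM was not called with length scaling (-0.37, adjusted p = 0.163) or with the groups compared alone (-0.37, adjusted p = 0.0562). After 4 h at 30 nM MGA was at 81.8, 84.4 and 91.3 CPM, a change of -0.42 ± 0.09 from DMSO (adjusted p = 0.000591, edgeR; 0.052 with length scaling at -0.41). MGA was the member whose pattern over the 9 groups lay nearest to that of MYC, with a root mean square difference of 0.264 on the log2 scale after each gene was centred.

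MLX (ENSG00000108788; chromosome 17, 42567068 to 42573239, plus strand) did not pass the test at 4 h. It was at 51.6, 55.0 and 57.9 CPM in DMSO and at 61.4, 54.6 and 59.4 CPM after 4 h (0.09 ± 0.07, 95% interval -0.05 to 0.23). At 2 h it was at 48.5, 48.9, 47.0 and 48.9 CPM at 30 nM, below the 4 Neg1 and Neg2 libraries (-0.17 ± 0.06, adjusted p = 0.0258, edgeR). This call was lost in 6 alternatives, among them the fits without Neg1 replicate 1, without Neg2 replicate 2 and without CDK-TCIP1 replicate 3 (adjusted p = 0.0989, 0.0899 and 0.0655). From 2 h to 4 h at 30 nM MLX rose by 0.27 ± 0.06 (adjusted p = 0.00241).

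MLXIP (ENSG00000175727; chromosome 12, 122078722 to 122147347, plus strand) was at 90.7, 85.6 and 72.3 CPM in DMSO and at 72.7, 66.6 and 67.5 CPM after 4 h. It fell by 0.27 ± 0.07 (adjusted p = 0.00476, edgeR), although 1 DMSO library lies within the treated range. At 2 h MLXIP averaged 65.1 ± 3.50 CPM at 10 nM, 63.3 ± 3.47 CPM at 30 nM and 57.7 ± 1.53 CPM at 100 nM, below the 77.6 to 81.6 CPM of the Neg1 and Neg2 libraries of that time. With length scaling the difference at 100 nM was -0.17 (adjusted p = 0.136), beside -0.47 ± 0.07.

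**Figure D2:**
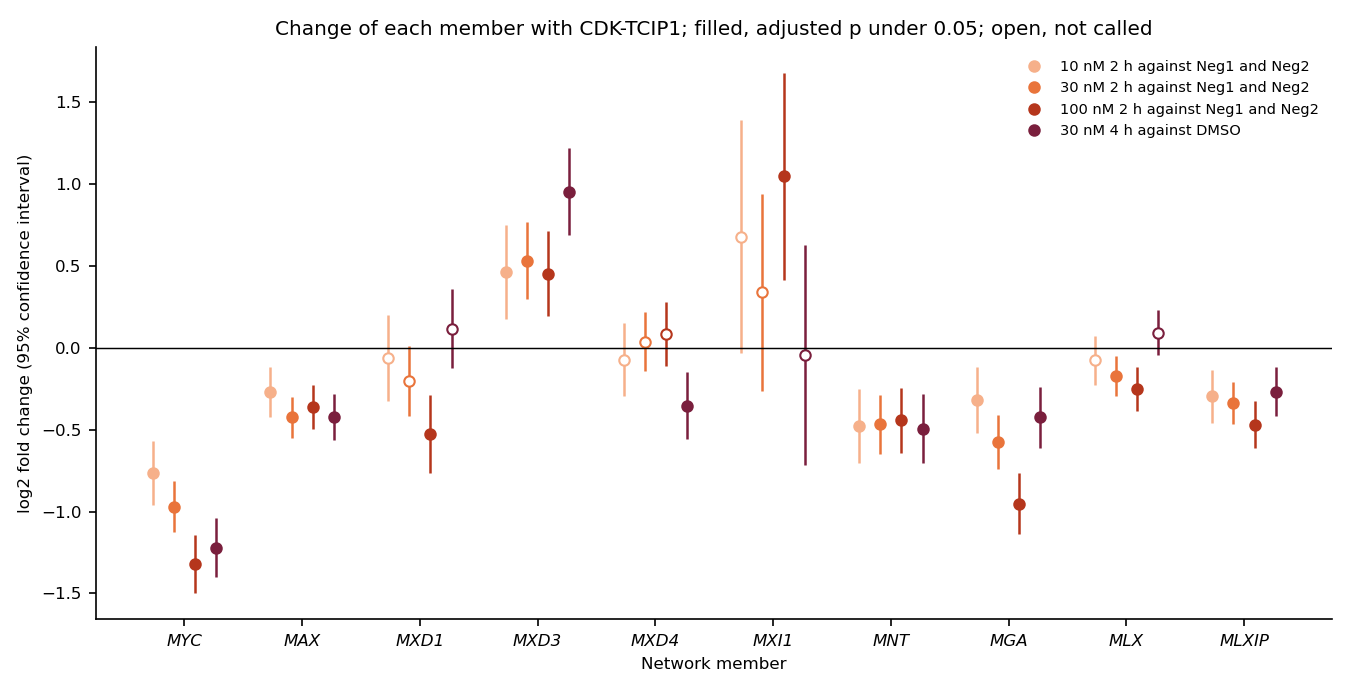
Log2 fold change of each of the 10 genes with its 95% interval in 4 comparisons: CDK-TCIP1 at 10, 30 and 100 nM for 2 h against the mean of Neg1 and Neg2 at 2 h, and 30 nM for 4 h against DMSO at 4 h; filled points passed the test. MYC lies lowest in all 4, from -0.76 to -1.32, and MXD3 lies above 0 in all 4, from 0.45 to 0.95.

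At 2 h, with no DMSO of that time, CDK-TCIP1 was set against Neg1 and Neg2. At 30 nM the dose matched: against Neg1, 5 members fell and 1 rose (27.8% of all genes passed), and against Neg2, 6 fell and 1 rose (30.5%). Against the mean of both, 6 fell and 1 rose (37.1%), with MYC at -0.97 ± 0.08, MGA at -0.57 ± 0.08, MNT at -0.47 ± 0.09, MAX at -0.43 ± 0.06, MLXIP at -0.34 ± 0.06, MLX at -0.17 ± 0.06 and MXD3 at 0.53 ± 0.11. The comparisons at 10 and at 100 nM differ in dose from Neg1 and Neg2 as well as in compound.

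At 10 nM, 5 members fell and 1 rose, while 13.5% of all genes passed. MYC was at -0.76 ± 0.09, MNT at -0.48 ± 0.11, MGA at -0.32 ± 0.10, MLXIP at -0.30 ± 0.08, MAX at -0.27 ± 0.07 and MXD3 at 0.46 ± 0.14. With 2 libraries at this dose the count was not firm: 1 member passed without replicate 1, 2 without replicate 2, and 2 with length scaling. MYC was called in each of these. Without the 2 libraries that stand apart, MXD3 at 10 nM was no longer called (0.44, adjusted p = 0.0631). At 100 nM, 7 members fell and 2 rose, with 44.9% of all genes called, and the 7 included MYC (-1.32 ± 0.09), MGA (-0.95 ± 0.09), MXD1 and MLX (-0.25 ± 0.07). Without the 2 libraries that stand apart, 9 members passed at 100 nM.

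After 4 h at the matched dose, 5 members fell and 1 rose against Neg1 (31.1% of all genes passed), and the same numbers held against Neg2 (31.1%). Against Neg1, MXD4 (-0.26, adjusted p = 0.0885) passed without the 2 libraries that stand apart (-0.27, adjusted p = 0.0331). Against the mean of both, 6 fell and 1 rose (38.2%). The fall of MLXIP in this last comparison (-0.19 ± 0.07, adjusted p = 0.0308) was lost with length scaling (-0.014, adjusted p = 0.932), with the replicate block (adjusted p = 0.0719) and without any of 5 of the 7 libraries, namely CDK-TCIP1 replicates 2 and 3, both of Neg1 and Neg2 replicate 1 (0.0503 to 0.117). That of MXD4 (-0.30 ± 0.09) was lost without CDK-TCIP1 replicate 3 (adjusted p = 0.0513). From 2 h to 4 h of CDK-TCIP1 at 30 nM, 3 members rose (MXD1, MXD3 and MLX) and none fell, where 21.9% of all genes passed. MYC missed the threshold here (-0.22, adjusted p = 0.0667), but passed as lower with no filter on low counts (adjusted p = 0.0129), with the replicate block (0.0244), by DESeq2 (0.0326), without the 2 libraries that stand apart (0.0287) and without 2 h replicate 1 (-0.29, adjusted p = 0.00824). MGA, at 0.17 ± 0.09 (adjusted p = 0.177), passed as higher with the groups compared alone (0.0393) and without the 2 libraries that stand apart (0.0224). The change over time of the CDK-TCIP1 effect against the mean of Neg1 and Neg2 passed for 0 members (edgeR, 12% of all genes; 4 of the 10 at an unadjusted p under 0.05, 1 by DESeq2). MXD1 was nearest, at 0.44 ± 0.15 (adjusted p = 0.0551; 0.031 by DESeq2).

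Neg1 and Neg2 left the members near their DMSO levels. In 6 comparisons (each compound against DMSO at 4 h, one against the other at 2 h and at 4 h, and 4 h against 2 h for each), 0 members passed, as did 0% of all genes (edgeR). Unadjusted p under 0.05 was reached by 1 member in the comparison of Neg1 with Neg2 at 2 h, by 1 in that of 4 h with 2 h of Neg2, and by 0 in the other 4; DESeq2 called 0 members in the 3 comparisons at 4 h. MYC differed from DMSO by -0.07 ± 0.10 with Neg1 (95% interval -0.26 to 0.13) and by -0.12 ± 0.10 with Neg2 (-0.32 to 0.07), intervals that leave room for a small change but not for that of CDK-TCIP1 at the same dose and time.

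The balance among the genes whose products compete for MAX was read within each library from TPM, a level that divides the reads by transcript length. In DMSO MYC stood at 96.2 TPM and MAX at 61.8 TPM, ahead of MLX (32.6), MXD4 (21.3), MLXIP (17.4), MXD3 (15.9), MGA (14.9), MNT (14.4), MXD1 (5.67) and MXI1 (2.27). TPM levels are not set against each other across groups here, because the median log2 TPM ratio over 8576 genes was -0.17 between CDK-TCIP1 at 4 h and DMSO. Of the summed TPM of the 7 genes MYC, MXD1, MXD3, MXD4, MXI1, MNT and MGA, MYC held 57.4, 55.2 and 56.6% in the DMSO libraries. After 4 h at 30 nM it held 31.1, 33.5 and 33.6%, and after 2 h at 100 nM 31.0, 33.8 and 37.3%.

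At 2 h MYC held 38.8 and 47.1% at 10 nM and 31.7, 41.0, 43.8 and 41.1% at 30 nM, below the 52.7 to 60.4% of the 8 Neg1 and Neg2 libraries. The share of MXD3 went the other way, from 9.27 ± 1.51% (SD, n = 3) in DMSO to 19.98 ± 2.68% (n = 4) after 2 h and 29.5 ± 4.67% (n = 3) after 4 h at 30 nM. At 4 h the mean share of MYC was 32.7 ± 1.42%, close to that of MXD3, beside 56.4 ± 1.14% in DMSO. The share of MXD3 leans on its 861-base transcript MXD3-208, which holds 50.2 ± 8.79% of the gene's TPM in DMSO and 55.8 ± 4.51% after 4 h, since a short transcript weighs more in TPM than in counts. The ratio of MYC to MAX was 1.56 ± 0.107 in DMSO and 0.863 ± 0.113 after 4 h at 30 nM. These are shares of mRNA, and protein levels were not measured.

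**Figure D3:**
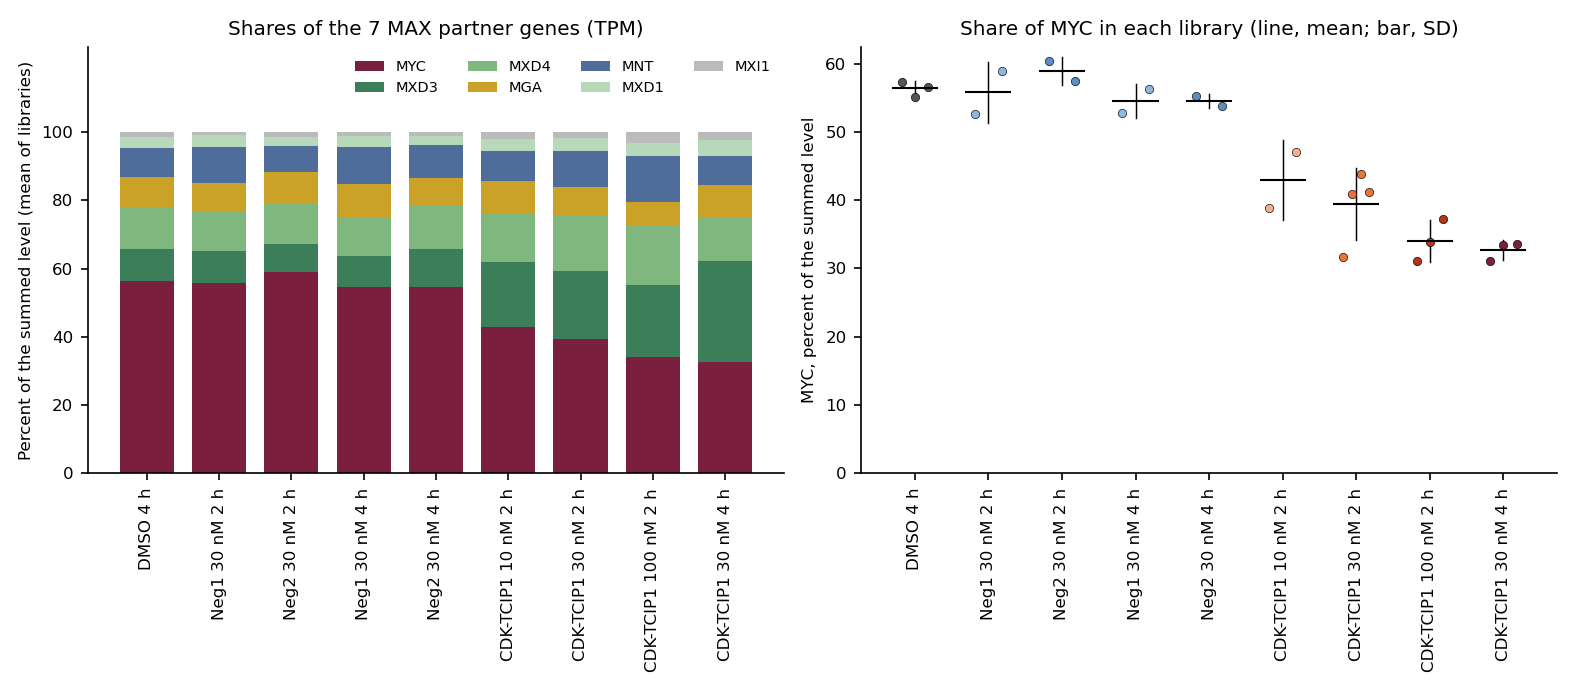
Left, mean percent of the summed TPM of 7 genes whose products pair with MAX, stacked by gene for each of the 9 groups; right, the percent held by MYC in each library (points), with the group mean (line) and SD (bar). MYC holds 52.7 to 60.4% in the 11 DMSO, Neg1 and Neg2 libraries and 31.0 to 47.1% in the 12 CDK-TCIP1 libraries.

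Transcripts of the members were tested in a fit of all 71167 transcripts above the low-count filter, of which 56 belong to the 10 genes. After 4 h at 30 nM against DMSO, 2 of the 56 rose and 6 fell, where 7.11% of all transcripts passed. MXD3-208 rose by 1.29 ± 0.30 (adjusted p = 0.0119, edgeR) and MLX-202 by 1.05 ± 0.28 (adjusted p = 0.0298). The 6 that fell were MYC-202 (-1.27 ± 0.14), MYC-205 (-1.03 ± 0.27), MAX-204 (-1.26 ± 0.22, adjusted p = 0.00102), MXD4-201, MNT-201 and MLXIP-201. Without 1 of the 6 libraries at a time, 3 to 5 of the 56 passed. MLX-202 was called in 1 of these 6 fits, that without CDK-TCIP1 replicate 3 (1.12, adjusted p = 0.0463), and had adjusted p of 0.078 to 0.094 in the others; without the 2 libraries that stand apart its adjusted p was 0.0504. MXD3-208 missed the threshold when DMSO replicate 2 (1.06, adjusted p = 0.0661) or CDK-TCIP1 replicate 2 (1.13, adjusted p = 0.0612) was left out.

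Whether the transcripts of a gene changed unequally was tested with diffSpliceDGE. No member passed at 4 h against DMSO (0 of 10; 3.65% of 10969 genes passed; MAX adjusted p = 0.219, MLX 0.686). MLX passed at 100 nM against the mean of Neg1 and Neg2 (adjusted p = 0.00484; 6.24% of genes), and at 30 nM 4 h against the mean of Neg1 and Neg2 (adjusted p = 0.0322; 5.14% of genes), where MAX also passed (adjusted p = 0.0343; 0.0593 without the 2 libraries that stand apart). In the first of these MLX-202 rose by 1.67 ± 0.26 and MLX-203 fell by 1.22 ± 0.14. That call was lost without the 2 libraries that stand apart (adjusted p = 0.118) and without Neg1 2 h replicate 2 (adjusted p = 0.133). The MLX call at 4 h was lost without any 1 of its 7 libraries (adjusted p = 0.0676 to 0.241), and that of MAX without 6 of the 7 (0.0874 to 0.652); the MAX call rests on MAX-206, a low transcript marked for nonsense-mediated decay. The change over time of the isoform effect (4 h against 2 h at 30 nM, each against the mean of Neg1 and Neg2) passed for 1 member, MAX (adjusted p = 0.0441 by the Simes method used for all these calls), where 2.19% of genes did. The F test of the same fit gave MAX an adjusted p of 0.102, and this comparison was not refitted without single libraries.

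The MLX transcripts differ by a coding cassette exon, shown because it separates the CDK-TCIP1 libraries from the rest. MLX-203 (ENST00000435881) holds it as exon 3 of 8 at chr17:42568470-42568559 (GRCh38, plus strand), and MLX-202 (ENST00000346833) skips it. The exon has 90 bases, so skipping removes 30 codons without shifting the frame (732 coding bases become 642). The sequences are from the GENCODE 29 transcripts, with 15 bases of each neighbouring exon, and capitals mark the cassette exon.
MLX-203: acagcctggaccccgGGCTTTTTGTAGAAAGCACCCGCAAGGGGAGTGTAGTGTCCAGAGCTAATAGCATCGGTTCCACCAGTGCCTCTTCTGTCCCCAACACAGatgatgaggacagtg
MLX-202: acagcctggaccccgatgatgaggacagtg

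Of the TPM of MLX transcripts that either hold or skip this exon, those that hold it made up 70.1, 72.2 and 74.5% in DMSO and 53.2, 44.2 and 50.2% after 4 h at 30 nM. At 2 h the share was 53.2 and 49.2% at 10 nM, 48.0, 53.9, 48.0 and 49.5% at 30 nM and 41.3, 31.7 and 44.8% at 100 nM. The 12 CDK-TCIP1 libraries ran from 31.7 to 53.9% (median 48.6%) and the 11 DMSO, Neg1 and Neg2 libraries from 64.6 to 85.7% (median 75.1%), so the 2 sets did not overlap. The summed level of MLX in the same libraries overlapped between DMSO and 4 h of CDK-TCIP1. The exon was picked after these values were seen, so the shares are a description without a test of their own. How many exons of other genes separate these libraries as well was not counted. At 2 h against the mean of Neg1 and Neg2, unequal transcript change of MLX did not pass at 10 nM (adjusted p = 0.23, diffSpliceDGE Simes test). At 30 nM its adjusted p was 0.074 by the Simes test and 0.0153 by the F test.

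MAX has a shorter coding insert of the same kind, 27 bases (9 codons) at chr14:65101546-65101572 (GRCh38, minus strand). MAX-205 (ENST00000358664) holds it as exon 2 of 5 and MAX-204 (ENST00000358402), which fell, skips it. The insert lies just before the basic region and separates the long and short MAX proteins that have long been known; capitals mark it.
MAX-205: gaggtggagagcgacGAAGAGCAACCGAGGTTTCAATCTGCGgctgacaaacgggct
MAX-204: gaggtggagagcgacgctgacaaacgggct

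Transcripts with the insert made up 57.6, 58.6 and 53.1% of the MAX TPM so compared in DMSO, and 71.6, 77.7 and 69.6% after 4 h at 30 nM. Over all libraries the CDK-TCIP1 set ran from 60.4 to 79.4% (median 69.9%) and the rest from 49 to 64.0% (median 57.6%), which overlap. For MAX, the isoform with the insert changed by -0.12 ± 0.15 at 4 h and did not pass, beside -1.26 ± 0.22 for the one without. MXD1 has a 30-base cassette exon (chr2:69921736-69921765, plus strand), and its share overlapped widely between the sets, 46.2 to 80.5% against 51.3 to 92.0%.

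**Figure D4:**
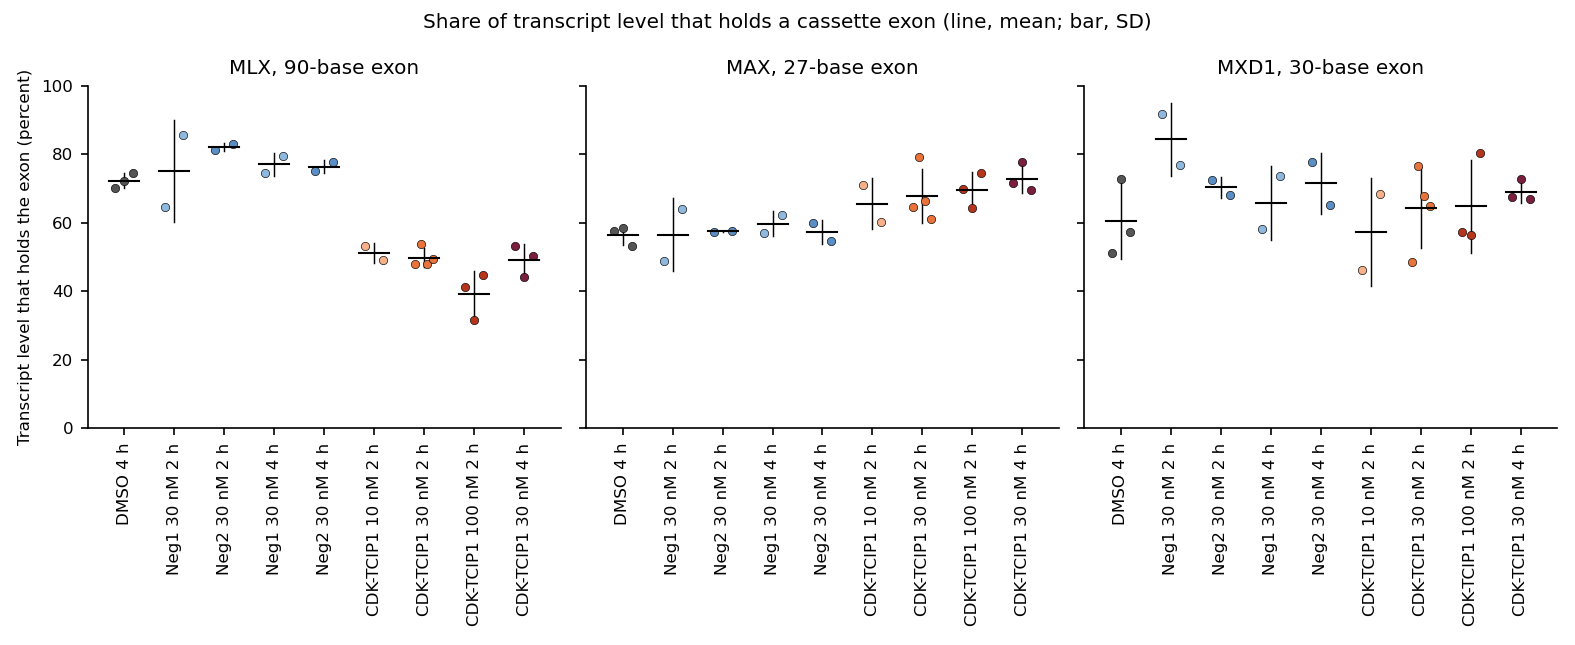
Percent of transcript level (TPM) that holds the cassette exon, in each library of the 9 groups, for MLX (90 bases), MAX (27 bases) and MXD1 (30 bases). For MLX the 12 CDK-TCIP1 libraries (31.7 to 53.9%) lie below the 11 others (64.6 to 85.7%), for MAX they lie mostly above, and for MXD1 they overlap.

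Promoters of the members were searched for CACGTG, the E-box bound most tightly by MYC-MAX and also bound by the repressor dimers, to show which members carry the letters that their own products read. The windows were 300 bases (250 before to 50 after a start) from RefSeq on GRCh38.p14; the motif reads the same on both strands, and 7.26% of 35116 windows hold it. MYC was not among the 9 members searched (14 windows). Of these 9, 3 hold the motif once each: MXD4 at chr4:2262332-2262357 (minus strand, 238 bases upstream of the start), MNT at chr17:2401238-2401263 (minus strand, 193 bases upstream) and MLX at chr17:42567040-42567065 (plus strand, 50 bases upstream). Each is shown with 10 bases on either side, the motif in capitals.
MXD4: gccgggccacCACGTGctgttgctaa
MNT: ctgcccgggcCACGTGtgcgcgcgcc
MLX: gggcgcgggtCACGTGggcacgccac

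At 4 h against DMSO, MXD4 (-0.35 ± 0.10) and MNT (-0.49 ± 0.10) fell and MLX (0.09 ± 0.07) did not pass. A match to these letters is not a binding site, and binding was not measured.

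Genes that MYC is known to activate were lower at 4 h more often than higher. This list, like the others below, was chosen with earlier results of these data known. Of 81 in the list, all tested, 39 fell and 7 rose against DMSO (background 19.3% lower and 17.5% higher), with a median log2 fold change of -0.14 against 0.03 for all genes. At 2 h against the mean of Neg1 and Neg2, 25 fell and 20 rose (background 18% and 19.1%), with a median of -0.02. The difference between these times was itself tested: the effect of CDK-TCIP1 at 30 nM was lower at 4 h than at 2 h for 24 of the 81 and higher for 7 (background 6.37% and 5.61%). With counts scaled by transcript length this count of lower genes was 8, and 12 genes in place of 20 rose at 2 h, while at 4 h 34 fell and 5 rose. TFRC, the transferrin receptor, fell from 391 to 197 CPM (-0.99 ± 0.07) and the phosphatase DUSP2 from 86.3 to 46.9 CPM (-0.88 ± 0.11). SHMT2, a mitochondrial serine enzyme, rose by 0.43 ± 0.07 and NOC4L, a ribosome assembly factor, by 0.39 ± 0.08.

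Of 8 genes that MYC is known to repress, 6 were tested. Against DMSO at 4 h, 3 rose and 0 fell (edgeR), where 17.5% of all genes rose and 19.3% fell. The numbers were the same against Neg1 at 4 h (31.1% of all genes passed), while 2 rose and 0 fell against Neg2 (31.1%). At 2 h against the mean of Neg1 and Neg2, 1 rose and 1 fell (19.1% and 18% of all genes). At 4 h against DMSO the cyclin-dependent kinase inhibitor CDKN1B rose from 34.1 to 101 CPM (1.57 ± 0.09), and the stress gene GADD45A by 0.63 ± 0.13. GADD45A also passed against Neg1 (0.70 ± 0.15) but not against Neg2 (0.34 ± 0.15, adjusted p = 0.0798, edgeR). CDKN1B was already at 89.1 CPM after 2 h at 30 nM, beside 33.0 CPM with Neg1 and Neg2, while GADD45A was not (0.11 ± 0.12). CDKN1B is also known as a target of BCL6.

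**Figure D5:**
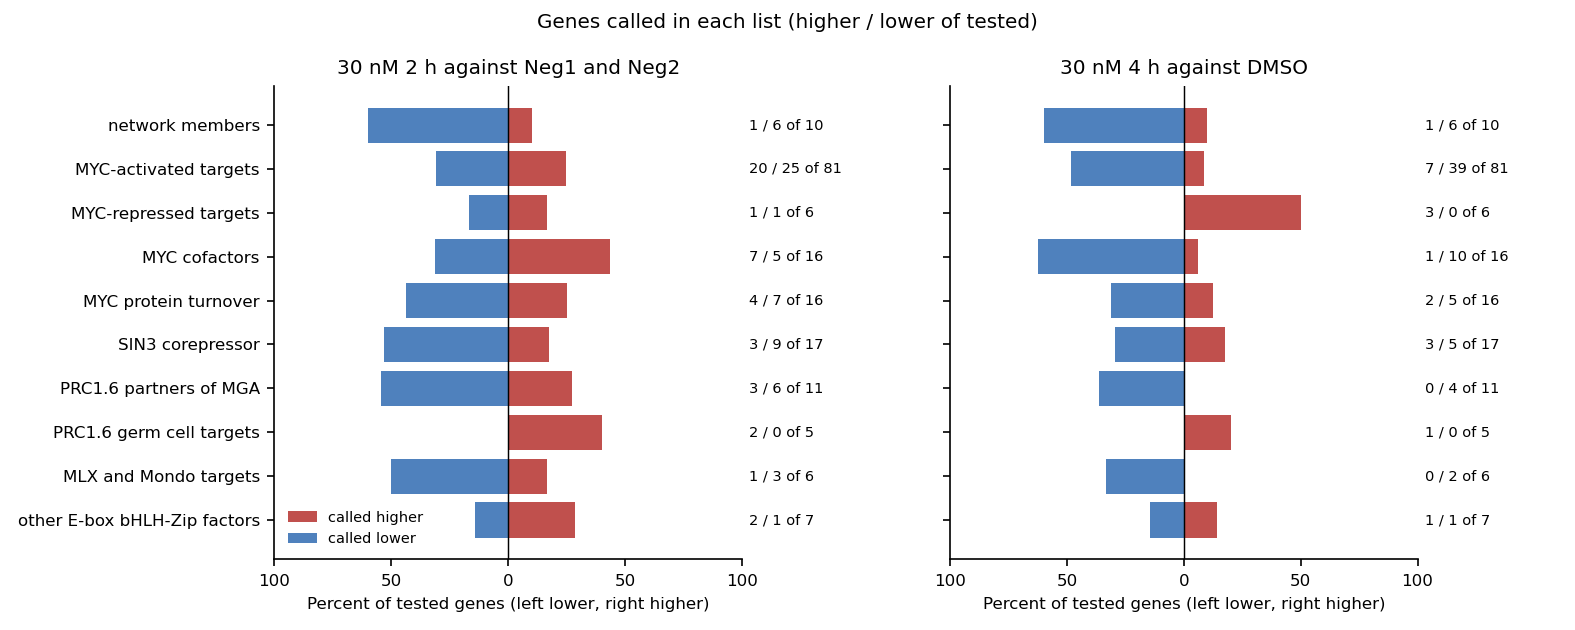
Percent of the tested genes of each list that were higher or lower (counts beside the bars), after 2 h at 30 nM against the mean of Neg1 and Neg2 and after 4 h at 30 nM against DMSO. In the MYC-activated list 20 genes were higher and 25 lower at 2 h, and 7 higher and 39 lower at 4 h.

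Genes for the complexes that the network recruits were also listed. Of 17 SIN3 corepressor genes, 3 rose and 5 fell at 4 h against DMSO, a share near the 36.8% of all genes called. SAP30, which bridges SIN3 to its deacetylases, fell by 0.84 ± 0.12 and SAP130 by 0.45 ± 0.09; ARID4B (0.20 ± 0.07) and ING1 (0.19 ± 0.07) rose, but neither call held in all fits without 1 library, where adjusted p reached 0.106 and 0.212 (edgeR). At 2 h against the mean of Neg1 and Neg2, 9 of the 17 were lower and 3 higher (18% and 19.1% of all genes). ARID4B (-0.44 ± 0.06) and ING1 (-0.19 ± 0.06) were among the lower genes.

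Of 11 partners of MGA in PRC1.6, 4 fell and 0 rose at 4 h against DMSO (edgeR), where 19.3% of all genes fell and 17.5% rose. Against the mean of Neg1 and Neg2, 3 fell and 0 rose at 4 h, where 38.2% of all genes passed. At 2 h, 6 fell and 3 rose against that mean (18% and 19.1% of all genes). The 2 genes named next are given at 4 h against DMSO. RING1, a ubiquitin ligase of Polycomb, fell by 0.83 ± 0.11 and PCGF6, which defines this complex, by 0.41 ± 0.10. The germ cell genes that PRC1.6 silences were mostly too low: 5 of 11 were tested and 1 rose at 4 h against DMSO. This was the meiotic gene MEIOC, from 0.889 to 2.40 CPM (1.43 ± 0.31), not called with length scaling (1.30, adjusted p = 0.121).

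Among 16 cofactors of MYC, 10 fell and 1 rose at 4 h against DMSO (19.3% and 17.5% of all genes). Against the mean of Neg1 and Neg2 at 4 h, 6 fell and 2 rose, where 38.2% of all genes passed. Against that mean at 2 h, 5 fell and 7 rose (18% and 19.1% of all genes). The gene that rose against DMSO was ZBTB17 (MIZ1), the zinc finger partner through which MYC represses. It went from 19.6 to 43.8 CPM (1.16 ± 0.07, adjusted p = 7.19e-12, edgeR). BPTF, a chromatin remodeller subunit, fell by 0.46 ± 0.07 and the elongation factor PAF1 by 0.41 ± 0.08. Of 16 genes that set the stability of MYC protein, 2 rose and 5 fell against DMSO, with 17.5% of all genes higher and 19.3% lower. The ubiquitin ligase subunit FBXW7 rose by 0.37 ± 0.07, and the phosphatase subunit PPP2R5A fell by 0.66 ± 0.07. The call of FBXW7 was lost with length scaling (adjusted p = 0.096).

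Of 6 tested targets of MLX and MLXIP, 2 fell and 0 rose at 4 h against DMSO (edgeR), where 19.3% of all genes fell and 17.5% rose. These were FASN, fatty acid synthase, by 0.27 ± 0.08 and KLF10 by 0.19 ± 0.07. FASN was higher by 0.38 with counts scaled by transcript length (adjusted p = 0.0356), so its direction is not settled. KLF10 missed the threshold when DMSO replicate 2 or CDK-TCIP1 replicate 2 or 3 was left out (adjusted p = 0.103, 0.0564 and 0.1). Against the mean of Neg1 and Neg2 at 4 h neither FASN (adjusted p = 0.0626, edgeR) nor KLF10 (0.165) passed, while FASN passed as lower against Neg1 alone (0.0393). Among 7 tested E-box factors outside the network, SREBF2, which drives sterol synthesis, rose by 0.35 ± 0.05 and TFAP4, a target of MYC, fell by 0.33 ± 0.13 (adjusted p = 0.046, edgeR; 0.0501 by DESeq2, and 0.0775 to 0.175 in 4 of the 6 fits without 1 library).

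Of the other genes of the MYC and Mondo families, MYCL was the 1 of 3 that was tested. It was near the floor, at 0.986 CPM in DMSO and 0.123 CPM after 4 h (-2.93 ± 0.86, adjusted p = 0.00859), with adjusted p of 0.235 and 0.231 against Neg1 and Neg2, and its call against DMSO was lost with length scaling (-2.19, adjusted p = 0.0733). The long noncoding RNA gene PVT1, which neighbours MYC, went the opposite way to MYC, from 0.978 to 3.30 CPM (1.74 ± 0.29, adjusted p = 3.39e-05, edgeR). It also rose at 2 h against the mean of Neg1 and Neg2 (1.39 ± 0.24), from 1.56 to 4.08 CPM, while at 4 h its difference from Neg2 did not pass (0.56 ± 0.31, adjusted p = 0.18).

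The 5 protein-coding genes whose pattern over the 9 groups was most like that of MYC, among 9486 whose average log2 CPM was 2 or more, were LYL1, HPDL, SLC35F2, IKZF2 and POLR1G. Their root mean square differences from MYC were 0.048, 0.054, 0.057, 0.073 and 0.075 on the log2 scale. At 4 h against DMSO their changes were -1.14 ± 0.10, -1.17 ± 0.16, -1.11 ± 0.09, -1.03 ± 0.14 and -1.06 ± 0.10, beside -1.22 for MYC. They encode a basic helix-loop-helix factor, a mitochondrial dioxygenase-like enzyme, a membrane carrier, a zinc finger factor of the Ikaros family and a subunit of RNA polymerase I. Of the members, MGA was nearest to MYC, with 4.7% of the candidates nearer still, and MXD3 was farthest, with 96.8% nearer.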

How the data were processed

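Poly(A) RNA of 23 libraries in 9 groups was sequenced. The authors deposited kallisto estimated counts and TPM per transcript; FastQC, cutadapt, kallisto and DESeq2 are named in the submitters' processing notes, without versions; transcript set and strand setting: not given in the sources used here. Of 227912 transcripts, 205964 matched GENCODE 29 (GRCh38), and the unmatched held 1.16 to 1.28% of the counts. The deposited estimated counts were summed to 58592 genes, rounded, and fitted in 1 edgeR 4.0.16 quasi-likelihood model (R 4.3.3) of all 9 groups with TMM scaling and filterByExpr, with Benjamini-Hochberg adjustment over 17743 genes. SE was taken as |log2 fold change| over the root of its F. The deposited TPM served for levels per length within a library. Transcripts were tested in the same way, and isoform use with diffSpliceDGE. Alternatives were other size factors, DESeq2 1.42.0, no filter, length-scaled counts, fewer groups, a replicate block and leaving out libraries; the fit without the 2 libraries that stand apart was added after seeing the data. The tests were checked on simulated data. The members and lists were chosen with earlier results of these data known. Named beside the members are, per list, the called genes with the largest rises and falls (at most 2 each) at 4 h against DMSO, lists of at most 4 genes in full, and the 5 genes most like MYC. Every pair of replicates differed by more than sampling noise (chi-square per degree of freedom 4.32 to 14.2). Values of some single genes of the lists are not reported here.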

Additional observations from a re-analysis of the deposited data

Results flagged for a closer look

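In CDK-TCIP1 30 nM 2 h replicate 1, the transcript MYC-202 made up 84.4% of the MYC TPM, while the other 3 libraries of the group lay at 49.1 to 53.9%. This library stood far from the others of its group by Dixon's criterion for outliers, with a gap of 0.865 of the whole range. In the same library MYC-206 held 0.362% with 3 estimated counts, beside 24.6 to 30.2% in the other 3. It was 1 of 28 values so examined, and chance alone marks about 1 in 20. The summed level of MYC there, 58.3 CPM, was the lowest of its group.

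The effect of CDK-TCIP1 at 30 nM on the isoform use of MAX differed between 2 h and 4 h (adjusted p = 0.0441, diffSpliceDGE Simes test; 0.102 by its F test). The call rests on MAX-206, which had 0 counts in all 3 CDK-TCIP1 libraries at 4 h and 0 to 99 counts elsewhere. It was also at 0 in DMSO replicates 2 and 3, Neg1 2 h replicate 1, Neg2 4 h replicate 1 and CDK-TCIP1 100 nM replicate 3.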

How the results depend on the processing

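Against DMSO at 4 h, 7 members passed in every fit without 1 library and under all other settings except length-scaled counts, where 5 did. With length-scaled counts, 4 members (7 as reported) passed at 30 nM 2 h against Neg2, 2 (6) at 10 nM against the mean of Neg1 and Neg2, and 0 (2) between 100 and 30 nM. FASN was then higher at 4 h (0.38) and MNT at 0.040 against Neg2 at 2 h (adjusted p = 0.929). Between 30 and 10 nM, 0 passed as reported and 1 with no filter, with the groups compared alone, or without the 2 libraries that stand apart. Between 100 and 30 nM, 0 passed with the groups compared alone and 1 without those libraries. For the change over time, 0 passed as reported, 2 with no filter, and 1 by DESeq2 or with the groups compared alone. The cause of these moves was not tested.

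Leaving out 1 library at a time gave 1 to 6 members at 10 nM, 8 to 9 at 100 nM, 0 to 3 between 100 and 30 nM, 0 to 0 between 30 and 10 nM, 5 to 6 at 2 h against Neg1, 5 to 7 against Neg2, 5 to 6 at 4 h against Neg1 and against Neg2, 0 to 2 for the change over time and 3 to 5 member transcripts (8 as reported). Where this left 1 library in a group, that library was assumed to vary like the other groups.

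With the replicate number as a block, 7 members passed at 4 h against DMSO and 1 in the change over time (MXD1, adjusted p = 0.0447). The numbers did not pair the libraries: the median correlation of deviations was 0.0111 over 78 same-numbered pairs (-0.163 to 0.173).

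The lowest members limit what can be seen: MXI1 at 2.02 to 8.14 CPM had an SE of 0.33 at 4 h, where MAX had 0.07. Counting error is not the only error, since replicates differed by more than it.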
